A study of Bos taurus with 8 samples.

Results

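The genes described here are the enzymes that write and erase marks on histones, together with core polycomb proteins, in cattle embryos of 4 or 8 cells. They were taken from the deposited table by symbol: all symbols that start with KDM, KMT2, KMT5, SETD, HDAC, SIRT, KAT or PRMT and go on with letters or numbers, plus EZH1, EZH2, EED, SUZ12, RNF2, RING1, BMI1, PCGF6, EHMT1 and EHMT2. Of 16606 genes in the table, 84 matched, and the 79 with a mean of at least 1 CPM (reads scaled to 1000000 per library) over the 8 libraries are the members, among 12129 genes that pass the same filter. The letters KAT also admit 5 katanin genes, whose products are subunits, relatives or partners of a microtubule-severing enzyme and not histone-modifying enzymes. They are counted as members and described apart, which leaves 74 members that match the name of the set.

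Embryos were produced in vitro from oocytes of abattoir ovaries and Holstein semen. Edited embryos had been given PEmax and a guide RNA by cytoplasmic injection as zygotes, to write the change A148G into RPL12, which encodes a protein of the large ribosomal subunit. PEmax is a prime editor, a Cas9 nickase joined to a reverse transcriptase. The 4 groups are control and edited embryos at each stage, with 2 libraries per group and 5 embryos pooled per library. Whether the controls received an injection is not in the labels, nor is what share of alleles carried the edit, from where position 148 is counted or whether the 2 libraries of a group came from separate fertilisations, so p-values measure the spread between these pools only. After injection the edited embryos went into IVF-BIO IVC, whereas the general culture step names SOF-BE2, and the labels leave unsaid which of them the controls had. The titles write of base editing and the protocol of prime editing. The labels give oocytes as the source of the 4-cell samples, whereas the titles say 4-cell embryos, and the titles were followed.

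Histone tails carry acetyl and methyl groups that set how open chromatin is. Acetyltransferases (KAT) and deacetylases (HDAC and the NAD-dependent sirtuins, SIRT) add and remove acetyl groups, SET-domain enzymes (KMT, SETD, EZH, EHMT) and arginine methyltransferases (PRMT) add methyl groups, and lysine demethylases (KDM) remove them. Polycomb repressive complex PRC2 (EZH1 or EZH2 with EED and SUZ12) methylates H3K27, and PRC1 (RNF2 or RING1 with a PCGF protein such as BMI1 or PCGF6) attaches ubiquitin to histone H2A. In early embryos these transcripts are in large part laid down in the oocyte. The bovine embryonic genome becomes broadly active around the 8-cell stage, when parental histone marks are remodelled.

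The libraries held 33527531 to 35122409 reads assigned to genes, so that 3 reads correspond to 0.0858 to 0.0899 CPM. RPL12 itself stood at 159 and 174 CPM in the 4-cell control libraries, 27.5 and 33.6 in the 4-cell edited, 96.3 and 97.6 in the 8-cell control and 14.1 and 11.9 in the 8-cell edited libraries. It was lower in edited embryos at both stages (log2 fold changes -2.41 and -2.81, limma adjusted p-values 2.36e-06 and 2.99e-06). All 15 oocyte markers examined were detected in every library. Their summed level was 19844 and 26263 CPM in the 4-cell control libraries, 49583 and 57929.8 in the 4-cell edited, 37734 and 50398 in the 8-cell control and 52813 and 56078 in the 8-cell edited libraries, with 6 called higher and 1 lower of 15 at the 4-cell stage and 2 higher at the 8-cell stage. BTG4 alone made up most of the oocyte marker sum, at 12015.5 and 14925.0 CPM in the 4-cell control libraries. Of 17 cumulus and granulosa cell markers tested, 11 were called lower and 2 higher (HAS2 and GREM1) in edited embryos at the 4-cell stage, and 5 were called lower at the 8-cell stage. The summed level of the 20 markers listed was 1360.5 and 1717 CPM in the 4-cell control libraries, 449.5 and 489.6 in the 4-cell edited, 578 and 909.7 in the 8-cell control and 455 and 467 in the 8-cell edited libraries. Among single markers LHCGR stayed at or below 0.0578 CPM in every library, and FOXL2 was highest in the first 4-cell control library, at 0.464 CPM, and at 0 in the second. Other granulosa markers were present in 4-cell controls and lower in edited embryos, such as INHA (20.4 and 13.4 against 0.231 and 1.84 CPM), FST (177 and 101 against 5.26 and 2.87 CPM), HSD3B1 (283 and 283 against 5.87 and 17.8 CPM) and CYP11A1 (227 and 201 against 3.33 and 14.5 CPM). Summed stroma and theca markers stood at 3169 and 6524 CPM in the 4-cell control, 1353 and 1981 in the 4-cell edited, 2643 and 3226 in the 8-cell control and 151 and 798 in the 8-cell edited libraries, and 6 of 7 tested were called lower at each stage. LUM alone made up most of the stroma and theca sum, at 2877.8 and 5965.1 CPM in the 4-cell control libraries. Summed leukocyte markers lay between 12.6 and 24.0 CPM in every library. Of 3 tested, CD68 was called lower at the 4-cell stage (2.87 and 1.76 CPM in control, 0.521 and 0.4095 in edited libraries, limma adjusted p-value 0.0411). CD3E was called higher at the 8-cell stage (4.35 and 2.84 CPM in control, 10.6 and 8.75 in edited libraries, limma adjusted p-value 0.0369). The marker levels moved with editing. The labels do not say whether cumulus cells were stripped from the embryos. Fewer cells of a type and less RNA per cell cannot be told apart in such pools, and the part of the markers in the results below was not tested. With the summed cumulus and granulosa level as a covariate in limma, no member was called at either stage (2 and 8 members with an unadjusted p-value under 0.05, against 37 and 15 without it). Over all 12129 genes the same fit called 0 at the 4-cell stage (578 unadjusted) and 336 at the 8-cell stage. At the 4-cell stage the covariate followed the groups (1360.5 and 1717 CPM in control, 449.5 and 489.6 in edited libraries). The fit could therefore hardly separate it from editing, and its lost calls do not show what part the markers had. Every member called at the 4-cell stage without the covariate had a limma adjusted p-value of at least 0.999 with it. The covariate also gave the upper end of each range of adjusted p-values stated below for an editing call or for the difference between stages.

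At the 4-cell stage the set split: 17 of 79 members were called higher in edited embryos and 16 lower, at a limma adjusted p-value under 0.05 on log2(CPM + 1). These are 21.5% and 20.3% of the members, beside 18.9% and 25.8% of all 12129 genes tested, so the share called (41.8% of members) lies near the background of 44.7%. The median log2 fold change of the members was 0.02, beside -0.02 over all genes. By at least 2-fold 8 members rose and 13 fell (10.1% and 16.5%), beside 12.0% and 23.2% of all genes. At the 8-cell stage 6 members were called lower, 7.59% of members beside 14.5% of all genes. No member was called higher there by limma (3 had an unadjusted p-value under 0.05), beside 1.08% of all genes. edgeR also called 0 higher and DESeq2 called 1. At the 4-cell stage the 2 groups of libraries did not overlap for 26 members that were higher and 28 that were lower in edited embryos, where 33.5% and 37.5% of all genes did so.

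**Figure D1:**
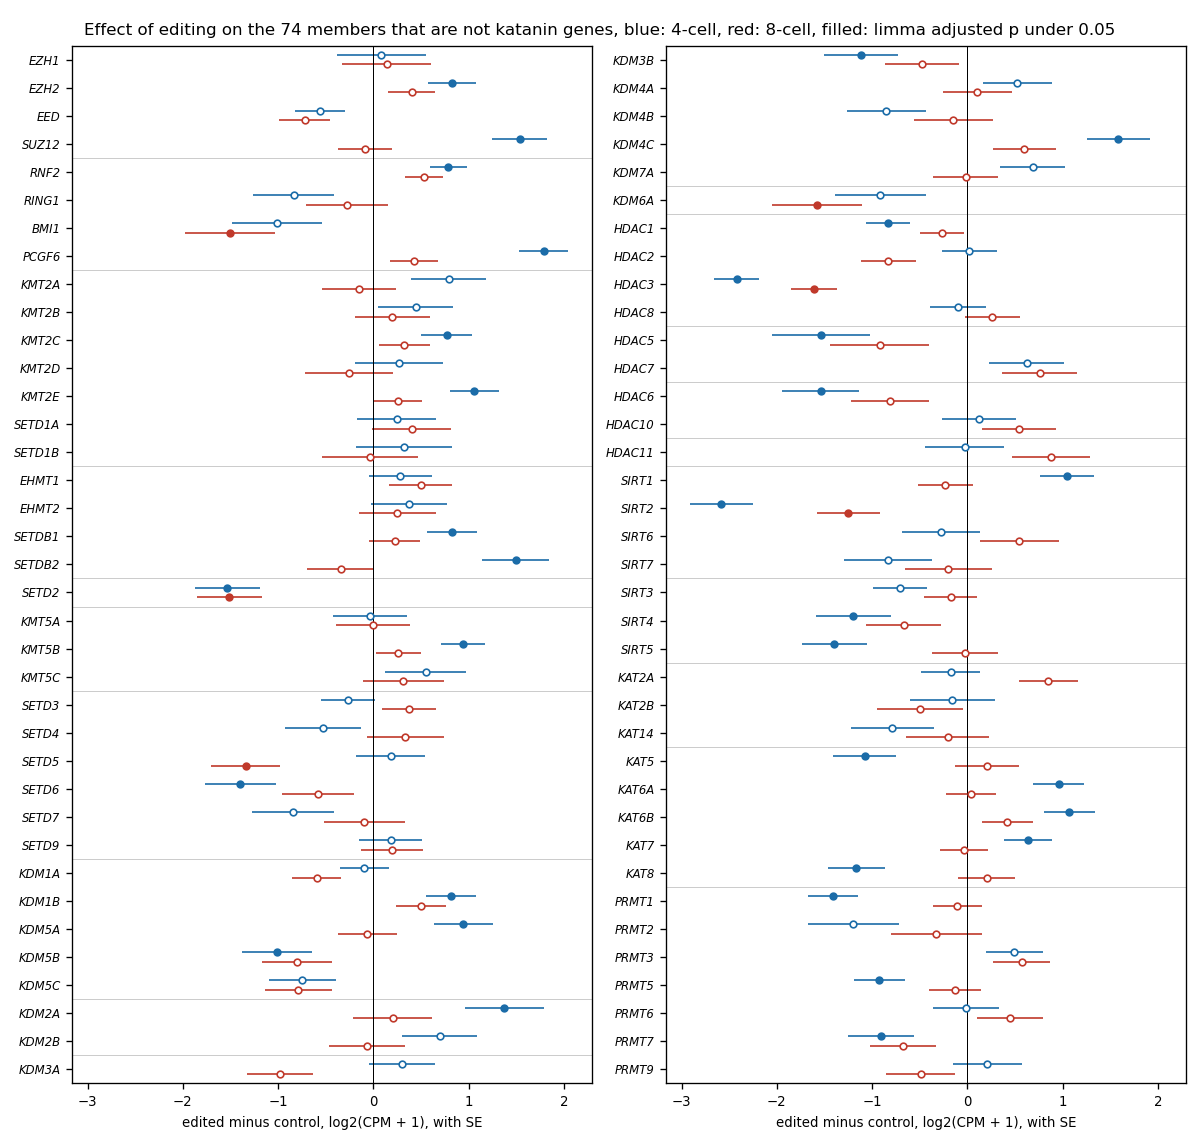
Change of each of the 74 members that are not katanin genes between edited and control embryos (log2(CPM + 1), edited minus control) at the 4-cell stage (blue) and the 8-cell stage (red), with the standard error from limma, 2 libraries per group. Grey lines separate groups of members by role, filled points have an adjusted p-value under 0.05, and most filled points are blue (33 against 6 members).

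The first 4-cell edited library held more of 57 of the 79 members than the second, and without it 7 members were called higher and 13 lower. Without that library 35.0% of the members' calls and 35.8% of the calls over all genes were higher, against 51.5% and 42.2% with it. The median log2 fold change of the members without it was -0.25. Over all genes the median log2(CPM + 1) was also higher in the first 4-cell edited library, at 4.052 against 3.916 in the second. For the members these medians were 3.932 and 3.633. Centring each library on its median gene, which moves the median of all genes from -0.02 to 0.22 at the 4-cell stage and to 0.23 at the 8-cell stage, gave 21 higher and 11 lower, so that 65.6% of the members' calls were higher. Over all genes that centring moved the share of higher calls to 55.5%. Under all alternatives run other than the marker covariate, 13 of the 33 calls at the 4-cell stage were kept: HDAC3, KAT8, KDM4C, KMT2E, PCGF6, PRMT1, RNF2, SETD2, SETDB2, SIRT1, SIRT2, SIRT5 and SUZ12. At the 8-cell stage the count was 2 without the second control library or without the first edited library of that stage, fits that called 8.42% and 10.6% of all genes. Of all members 30 were called at the 4-cell stage alone and 43 at neither stage. BMI1, KDM6A and SETD5 were called in 8-cell embryos only, and HDAC3, SETD2 and SIRT2 at both stages. Over all 12129 genes calls were likewise fewer in 8-cell embryos (15.6%) than in 4-cell embryos (44.7%). Shares of all genes with each of these patterns are not given here, so the split is not shown to be particular to the members. The share of all called genes that kept their calls under the alternatives is not given either.

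At the 4-cell stage 4 of the 8 core polycomb members rose in edited embryos (PCGF6, SUZ12, EZH2 and RNF2) and the other 4 were not called. The share called was 50.0%, beside 44.7% of all genes called either way and 18.9% called higher. PCGF6, the PCGF protein of a germline-gene repressing PRC1 variant, had the largest rise among all members, and stood at 18.5 and 20.8 CPM in the 4-cell control libraries, 70.1 and 69.8 in the 4-cell edited, 32.7 and 28.4 in the 8-cell control and 39.9 and 42.6 in the 8-cell edited libraries. Both 4-cell edited libraries lay above all others. The 4-cell change was well beyond the spread between libraries (log2 change 1.79, SE 0.255, adjusted p-value 4.92e-05 by limma). SUZ12, the scaffold subunit that holds PRC2 together, stood at 14.7 and 24.2 CPM in the 4-cell control libraries, 54.6 and 58.4 in the 4-cell edited, 38.6 and 31.1 in the 8-cell control and 33.9 and 31.3 in the 8-cell edited libraries (log2 change 1.53, SE 0.288, adjusted p-value 0.000506 by limma). Again the 4-cell edited libraries were the highest and the 4-cell control libraries the lowest.

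EZH2, the catalytic subunit of PRC2 in dividing cells, stood at 43.3 and 35.3 CPM in the 4-cell control libraries, 80.5 and 61 in the 4-cell edited, 53 and 59 in the 8-cell control and 76.7 and 71.6 in the 8-cell edited libraries. The 4-cell groups did not overlap (log2 change 0.82, SE 0.248, adjusted p-value 0.0130 by limma). The call for EZH2 was lost without the second 4-cell control library (adjusted p-value 0.0603) and without the first 4-cell edited library (adjusted p-value 0.103), within a range of 0.00219 to 0.999 over its alternatives. RNF2, the ubiquitin ligase of PRC1, stood at 189.6 and 186 CPM in the 4-cell control libraries, 316 and 333 in the 4-cell edited, 289 and 279.6 in the 8-cell control and 399 and 423 in the 8-cell edited libraries. Both edited groups lay above the control group of their stage, and the difference passed at the 4-cell stage (log2 change 0.79, SE 0.198, adjusted p-value 0.00432 by limma) but not at the 8-cell stage (log2 fold change 0.53, adjusted p-value 0.0890).

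The partner subunits did not follow the same course. EED, which binds the methylated H3K27 that PRC2 makes, stood at 66.1 and 77.2 CPM in the 4-cell control libraries, 41.9 and 55.3 in the 4-cell edited, 76.4 and 66.1 in the 8-cell control and 35.3 and 51.6 in the 8-cell edited libraries. Edited libraries were lower than control libraries of their stage at both stages, without passing (log2 fold changes -0.56 and -0.72, limma adjusted p-values 0.0983 and 0.0819). EZH1, the alternative catalytic subunit, stood at 5.59 and 4.84 CPM in the 4-cell control libraries, 7.38 and 4.15 in the 4-cell edited, 8.12 and 3.22 in the 8-cell control and 3.62 and 9.13 in the 8-cell edited libraries, with overlapping groups at both stages. RING1, the paralogue of RNF2, had 3.25 and 1.64 CPM in the 4-cell control libraries, 1.22 and 0.585 in the 4-cell edited, 0.429 and 1.63 in the 8-cell control and 0.657 and 0.539 in the 8-cell edited libraries, and was not called. BMI1, the PCGF protein of canonical PRC1, stood at 5.42 and 10.3 CPM in the 4-cell control libraries, 1.62 and 5.79 in the 4-cell edited, 6.15 and 4.49 in the 8-cell control and 1.73 and 0.779 in the 8-cell edited libraries. It was the polycomb member called at the 8-cell stage, where it fell in edited embryos (log2 change -1.51, SE 0.476, adjusted p-value 0.0407 by limma). This call for BMI1 was lost when any of 4 libraries was left out, with adjusted p-values from 0.0536 to 0.249, and also with TMM factors (0.0546) and in edgeR (0.0787), within 0.0175 to 0.257 over its alternatives.

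**Figure D2:**
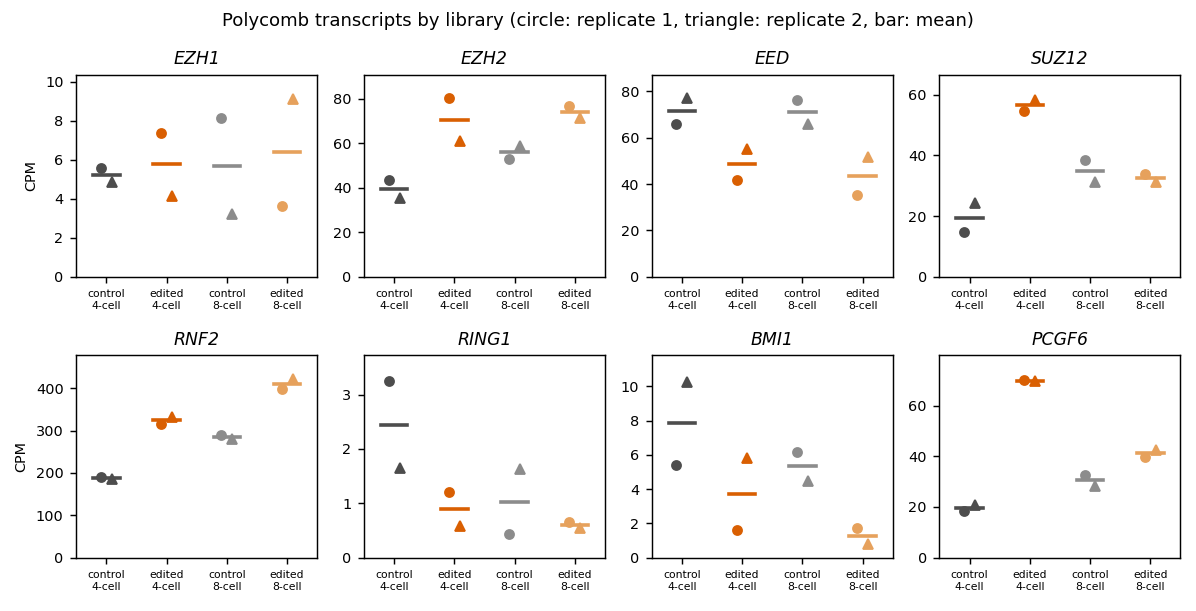
CPM of the 8 core polycomb members in each library (y axis from 0, groups on the x axis, circle for replicate 1, triangle for replicate 2, bar for the mean). PCGF6 and SUZ12 are highest in the 2 edited 4-cell libraries, RNF2 lies higher in edited than in control libraries at each stage, and EED lies lower.

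Among 21 lysine methyltransferases and other SET-domain proteins, 5 rose at the 4-cell stage (KMT2C, KMT2E, KMT5B, SETDB1 and SETDB2) and 2 fell (SETD2 and SETD6). These are 23.8% and 9.52%, beside 18.9% and 25.8% of all genes. The median log2 fold change of the 21 was 0.28, beside -0.02 over all genes. All 7 members of the H3K4 group had positive values, from 0.24 for SETD1A to 1.06 for KMT2E, but 2 passed. The 2 are 28.6% of the group, beside 18.9% of all genes called higher, and 5988 of all 12129 genes had positive values. KMT2E, a SET-domain protein of the MLL family, stood at 41.2 and 61.6 CPM in control and 112 and 101 CPM in edited libraries at the 4-cell stage (log2 change 1.06, SE 0.256, adjusted p-value 0.00323 by limma). KMT2C, an H3K4 methyltransferase active at enhancers, stood at 50.3 and 75.9 CPM in control and 126 and 89.2 CPM in edited libraries (log2 fold change 0.77, limma adjusted p-value 0.0275). The call for KMT2C was lost without the first 4-cell control library (adjusted p-value 0.218) and without the first 4-cell edited library (adjusted p-value 0.217), within 0.00354 to 0.999 over its alternatives. KMT2A, KMT2B, KMT2D, SETD1A and SETD1B, the other members of the H3K4 group, were not called at either stage. KMT2D lay near the filter, at 1.07 CPM on average.

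All 4 H3K9 writers had positive values at the 4-cell stage, as did 5988 of all 12129 genes, and SETDB1 and SETDB2 passed. The 2 are 50.0% of the group, beside 18.9% of all genes called higher. SETDB2 stood at 4.38 and 5.78 CPM in the 4-cell control libraries, 19 and 13.4 in the 4-cell edited, 7.47 and 8.78 in the 8-cell control and 5.80 and 6.56 in the 8-cell edited libraries (log2 change 1.49, SE 0.353, adjusted p-value 0.00279 by limma). Its 2 edited libraries were the highest of all at the 4-cell stage and lay below both control libraries at the 8-cell stage. SETDB1, which silences endogenous retroviruses, stood at 32.2 and 50.7 CPM in control and 76.8 and 68.5 CPM in edited libraries at the 4-cell stage (log2 fold change 0.83, limma adjusted p-value 0.0177), a call lost without the first 4-cell control library (adjusted p-value 0.175) and without the first 4-cell edited library (adjusted p-value 0.0965), within 0.00278 to 0.999 over its alternatives. EHMT1 and EHMT2, which form the main complex for H3K9 dimethylation in euchromatin, were not called. EHMT1 stood at 13.2 and 11 CPM in the 4-cell control libraries, 18.6 and 11.8 in the 4-cell edited, 10.6 and 12 in the 8-cell control and 17 and 15.6 in the 8-cell edited libraries. EHMT2 stood at 4.75 and 6.48 CPM in the 4-cell control libraries, 11.4 and 4.83 in the 4-cell edited, 6.69 and 8.66 in the 8-cell control and 8.61 and 9.94 in the 8-cell edited libraries. For both, the first 4-cell edited library was high and the second lay between the 2 control libraries of that stage.

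KMT5B, which di- and trimethylates H4K20, stood at 257 and 329.5 CPM in the 4-cell control libraries, 673 and 464 in the 4-cell edited, 578 and 475 in the 8-cell control and 656 and 602 in the 8-cell edited libraries. The 4-cell control libraries were the lowest (log2 change 0.94, SE 0.232, adjusted p-value 0.00371 by limma). Without the first 4-cell edited library its adjusted p-value was 0.0652, within 0.000783 to 0.999 over its alternatives. KMT5A and KMT5C, the other H4K20 writers, had 4-cell log2 fold changes of -0.04 and 0.55 and were not called.

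SETD2, the enzyme that trimethylates H3K36 in transcribed genes, went the other way at both stages. It stood at 18 and 17.6 CPM in the 4-cell control libraries, 6.65 and 4.53 in the 4-cell edited, 13.1 and 14.8 in the 8-cell control and 4.30 and 4.13 in the 8-cell edited libraries. The edited libraries lay below all control libraries (log2 change -1.53, SE 0.342, adjusted p-value 0.00186 by limma at the 4-cell stage and log2 change -1.51, SE 0.342, adjusted p-value 0.00511 at the 8-cell stage). The 8-cell call was lost without the second 8-cell control library (adjusted p-value 0.0557), within 5.02e-05 to 0.227 over its alternatives. SETD6, which methylates the RELA subunit of NF-kappaB, stood at 16 and 13 CPM in control and 6.71 and 3.45 CPM in edited libraries at the 4-cell stage (log2 change -1.40, SE 0.375, adjusted p-value 0.00657 by limma), a call lost without the first 4-cell control library (adjusted p-value 0.0635) and without the second 4-cell edited library (adjusted p-value 0.0640), within 0.00169 to 0.999 over its alternatives. SETD5, a chromatin-associated SET-domain protein, stood at 7.24 and 7.30 CPM in the 4-cell control libraries, 8.82 and 7.96 in the 4-cell edited, 7.55 and 9.40 in the 8-cell control and 2.06 and 3.53 in the 8-cell edited libraries. It was not called at the 4-cell stage (log2 fold change 0.18, adjusted p-value 0.718) and fell at the 8-cell stage (log2 change -1.34, SE 0.364, adjusted p-value 0.0177 by limma). Leaving out a library ended that SETD5 call without the second 8-cell control library (adjusted p-value 0.142) and without the first 8-cell edited library (adjusted p-value 0.192), within 0.00492 to 0.407 over its alternatives. SETD3, an actin histidine methyltransferase, and SETD4, SETD7 and SETD9 were not called.

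Of 14 lysine demethylases 4 rose at the 4-cell stage (KDM1B, KDM2A, KDM4C and KDM5A) and 2 fell (KDM3B and KDM5B). The shares are 28.6% and 14.3%, beside 18.9% and 25.8% of all genes. KDM4C, which removes H3K9 and H3K36 methylation, stood at 28.5 and 68.5 CPM in the 4-cell control libraries, 158 and 115 in the 4-cell edited, 105 and 119 in the 8-cell control and 142 and 204 in the 8-cell edited libraries (log2 change 1.58, SE 0.331, adjusted p-value 0.00115 by limma). The 4-cell control libraries were the lowest, the first of them lower than the second. KDM1B, the oocyte H3K4 demethylase needed for maternal imprints, stood at 30.8 and 27 CPM in control and 54.5 and 48.8 CPM in edited libraries (log2 fold change 0.81, limma adjusted p-value 0.0189). KDM5A, an H3K4 demethylase, stood at 13.2 and 20.3 CPM in control and 41.1 and 25.6 CPM in edited libraries (log2 change 0.94, adjusted p-value 0.0213), and KDM2A, an H3K36 demethylase with a CpG-binding domain, at 2.93 and 3.31 CPM in control and 14.2 and 6.49 CPM in edited libraries (log2 change 1.37, adjusted p-value 0.0137). The call for KDM1B was lost without the second 4-cell control library (adjusted p-value 0.0674) and without the first 4-cell edited library (adjusted p-value 0.0863). That for KDM5A was lost without the first 4-cell control library (adjusted p-value 0.173) and without the first 4-cell edited library (adjusted p-value 0.189). That for KDM2A was lost without the first 4-cell control library (adjusted p-value 0.0745) and without the first 4-cell edited library (adjusted p-value 0.159). Over their alternatives these 3 adjusted p-values ran from 0.00192 to 0.999.

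KDM5B, the paralogue of KDM5A, moved in the opposite direction, at 23 and 16.7 CPM in control and 11.9 and 7.11 CPM in edited libraries at the 4-cell stage (log2 fold change -1.01, limma adjusted p-value 0.0340). KDM3B, an H3K9 demethylase, stood at 6.03 and 7.92 CPM in control and 3.12 and 2.25 CPM in edited libraries (log2 change -1.11, adjusted p-value 0.0289). Neither call was firm: KDM5B was not called without the first 4-cell control library (adjusted p-value 0.217) and without the second 4-cell edited library (adjusted p-value 0.212), KDM3B was not called without the first 4-cell control library (adjusted p-value 0.0670) and without the second 4-cell control library (adjusted p-value 0.154) and without the second 4-cell edited library (adjusted p-value 0.124), and edgeR called neither (adjusted p-values 0.0510 and 0.0564). Over the alternatives KDM5B ranged over 0.0138 to 0.999 and KDM3B over 0.0178 to 0.999. KDM6A, the X-linked demethylase of H3K27, the residue that EZH2 methylates, stood at 5.88 and 12.1 CPM in the 4-cell control libraries, 2.31 and 6.70 in the 4-cell edited, 5.18 and 8.87 in the 8-cell control and 1.11 and 2.25 in the 8-cell edited libraries. It fell at the 8-cell stage (log2 change -1.58, SE 0.476, adjusted p-value 0.0319 by limma), a call lost without the second 8-cell control library (adjusted p-value 0.233) and without the first 8-cell edited library (adjusted p-value 0.222) and in edgeR (0.0678), within 0.00838 to 0.520 over its alternatives. KDM1A, the H3K4 demethylase of the CoREST complex, overlapped between groups at the 4-cell stage, with 77.6 and 91.4 CPM in the 4-cell control libraries, 101 and 61.6 in the 4-cell edited, 102 and 112 in the 8-cell control and 68 and 72.6 in the 8-cell edited libraries.

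Deacetylases of classes I, II and IV counted 9 members, of which 4 fell in edited embryos at the 4-cell stage (HDAC1, HDAC3, HDAC5 and HDAC6) and 5 were not called. The 4 are 44.4% of the 9, beside 25.8% of all genes called lower. HDAC3, the deacetylase of the NCOR corepressor complex, had the smallest p-value of all members. It stood at 267 and 241 CPM in the 4-cell control libraries, 44 and 49.3 in the 4-cell edited, 121 and 142 in the 8-cell control and 36.1 and 49.6 in the 8-cell edited libraries. Every edited library was below every control library, and the edited libraries of both stages lay between 36.1 and 49.6 CPM (log2 change -2.42, SE 0.238, adjusted p-value 1.80e-06 by limma at the 4-cell stage and log2 change -1.61, SE 0.238, adjusted p-value 0.000157 at the 8-cell stage). HDAC3 was the member whose 8-cell call was kept under all alternatives other than the marker covariate, which gave 0.0600. HDAC1, found with HDAC2 in the SIN3, NuRD and CoREST complexes, stood at 97.2 and 106 CPM in the 4-cell control libraries, 59.1 and 54.4 in the 4-cell edited, 74.6 and 67.2 in the 8-cell control and 54.3 and 63.8 in the 8-cell edited libraries (log2 change -0.83, SE 0.231, adjusted p-value 0.00813 by limma). With each library centred on its median the adjusted p-value of HDAC1 was 0.0543, within 0.00652 to 0.999 over its alternatives. HDAC2 itself stood at 58.4 and 72.5 CPM in the 4-cell control libraries, 52.5 and 83.2 in the 4-cell edited, 78.4 and 50.3 in the 8-cell control and 32.7 and 37.2 in the 8-cell edited libraries and was not called at either stage, although both 8-cell edited libraries were the lowest of all.

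HDAC6, the mainly cytoplasmic tubulin deacetylase, stood at 8.66 and 8.91 CPM in control and 1.45 and 3.63 CPM in edited libraries at the 4-cell stage (log2 change -1.54, SE 0.406, adjusted p-value 0.00585 by limma). Its call was lost without the first 4-cell edited library (adjusted p-value 0.0718), within 0.00265 to 1 over its alternatives. HDAC5, a signal-regulated class IIa deacetylase, stood at 7.76 and 2.73 CPM in control and 1.45 and 0.585 CPM in edited libraries (log2 change -1.54, adjusted p-value 0.0237), and was not called without the first 4-cell control library (adjusted p-value 0.271) and without the first 4-cell edited library (adjusted p-value 0.0520) and without the second 4-cell edited library (adjusted p-value 0.169) or in edgeR (0.0617), within 0.00329 to 0.999 over its alternatives. HDAC8 stood at 21.3 and 31.9 CPM in control and 27.1 and 21.7 CPM in edited libraries and overlapped. HDAC7 had higher values in both 4-cell edited libraries (log2 fold change 0.62, adjusted p-value 0.213) without passing. HDAC10 and HDAC11 had log2 fold changes of 0.12 and -0.03 at the 4-cell stage and were not called.

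Of 7 sirtuins 3 fell at the 4-cell stage (SIRT2, SIRT4 and SIRT5) and SIRT1 rose. As shares this is 42.9% lower and 14.3% higher, beside 25.8% and 18.9% of all genes. SIRT2, a mainly cytoplasmic deacetylase that also acts on H4K16 in mitosis, had the largest fall of all members. It stood at 44.2 and 41.5 CPM in the 4-cell control libraries, 5.90 and 6.76 in the 4-cell edited, 13.4 and 19.8 in the 8-cell control and 5.41 and 7.25 in the 8-cell edited libraries (log2 change -2.58, SE 0.330, adjusted p-value 1.86e-05 by limma at the 4-cell stage and log2 change -1.25, SE 0.330, adjusted p-value 0.0147 at the 8-cell stage). The 8-cell call for SIRT2 was lost without the second 8-cell control library (adjusted p-value 0.192) and without the first 8-cell edited library (adjusted p-value 0.142), within 0.00167 to 0.556 over its alternatives. SIRT1, the nuclear sirtuin, stood at 22.1 and 23.8 CPM in the 4-cell control libraries, 51.1 and 45.8 in the 4-cell edited, 21.3 and 21.9 in the 8-cell control and 15 and 22.2 in the 8-cell edited libraries. The 4-cell edited libraries stood above all 6 others, which lay between 15 and 23.8 CPM (log2 change 1.05, SE 0.286, adjusted p-value 0.00739 by limma). SIRT5, a mitochondrial desuccinylase, stood at 18.1 and 16.3 CPM in the 4-cell control libraries, 4.77 and 7.25 in the 4-cell edited, 8.55 and 9.37 in the 8-cell control and 9.56 and 8.06 in the 8-cell edited libraries (log2 change -1.40, SE 0.343, adjusted p-value 0.00367 by limma). The 4-cell control libraries stood apart as the highest. SIRT4, also mitochondrial, fell from a low level (2.93 and 5.48 CPM in control and 1.04 and 1.38 CPM in edited libraries at the 4-cell stage, adjusted p-value 0.0216), a call lost without the second 4-cell control library (adjusted p-value 0.199) and without the first 4-cell edited library (adjusted p-value 0.0951), within 0.0137 to 0.999 over its alternatives. SIRT3, the main mitochondrial deacetylase, was lower in both 4-cell edited libraries without passing (log2 fold change -0.71, adjusted p-value 0.0515). SIRT6 and SIRT7, the other nuclear sirtuins, were not called.

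All 5 acetyltransferases of the MYST family were called at the 4-cell stage, in both directions, where 44.7% of all genes were called. Over all acetyltransferases of the set 5 of 8 were called (62.5%). KAT6A, KAT6B and KAT7 rose, and KAT5 and KAT8 fell. KAT6B, an H3K23 acetyltransferase, stood at 88.7 and 139 CPM in the 4-cell control libraries, 274 and 200 in the 4-cell edited, 234 and 155 in the 8-cell control and 255 and 255 in the 8-cell edited libraries (log2 change 1.07, SE 0.267, adjusted p-value 0.00415 by limma). KAT6A, its paralogue, stood at 18.9 and 22.4 CPM in control and 44.8 and 37.4 CPM in edited libraries at the 4-cell stage (log2 change 0.96, adjusted p-value 0.00777), and KAT7, which acetylates H3K14 with BRPF partners, at 41.2 and 56.1 CPM in control and 87 and 65 CPM in edited libraries (log2 change 0.64, adjusted p-value 0.0495). The calls for KAT6B and KAT6A were lost without the first 4-cell edited library, with adjusted p-values of 0.0696 and 0.0526. The call for KAT7 was at the threshold and was lost when any of 6 libraries was left out, with adjusted p-values from 0.0639 to 0.274. KAT8, the H4K16 acetyltransferase, stood at 41.4 and 37.2 CPM in the 4-cell control libraries, 17.8 and 16.1 in the 4-cell edited, 25.8 and 24.7 in the 8-cell control and 22.3 and 38.1 in the 8-cell edited libraries (log2 change -1.17, SE 0.300, adjusted p-value 0.00492 by limma). Its 4-cell edited libraries were the lowest of all. KAT5, the catalytic subunit of the TIP60 complex, stood at 14.7 and 20 CPM in control and 8.88 and 6.49 CPM in edited libraries at the 4-cell stage (log2 change -1.08, SE 0.334, adjusted p-value 0.0152 by limma), a call lost without the second 4-cell control library (adjusted p-value 0.110) and without the second 4-cell edited library (adjusted p-value 0.0841). Over their alternatives the adjusted p-values of KAT6B, KAT6A, KAT7 and KAT5 ran from 0.000634 to 0.999.

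The GNAT acetyltransferases were not called between edited and control embryos at either stage. KAT2A, the catalytic subunit of SAGA, stood at 18.5 and 16.5 CPM in the 4-cell control libraries, 19.7 and 12 in the 4-cell edited, 18.1 and 22.4 in the 8-cell control and 38.5 and 35.9 in the 8-cell edited libraries. Both 8-cell edited libraries were above all others, with a difference from 8-cell controls that did not pass (log2 fold change 0.85, limma adjusted p-value 0.0794). KAT2B, its paralogue, and KAT14, of the ATAC complex, had 4-cell log2 fold changes of -0.16 and -0.79.

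**Figure D3:**
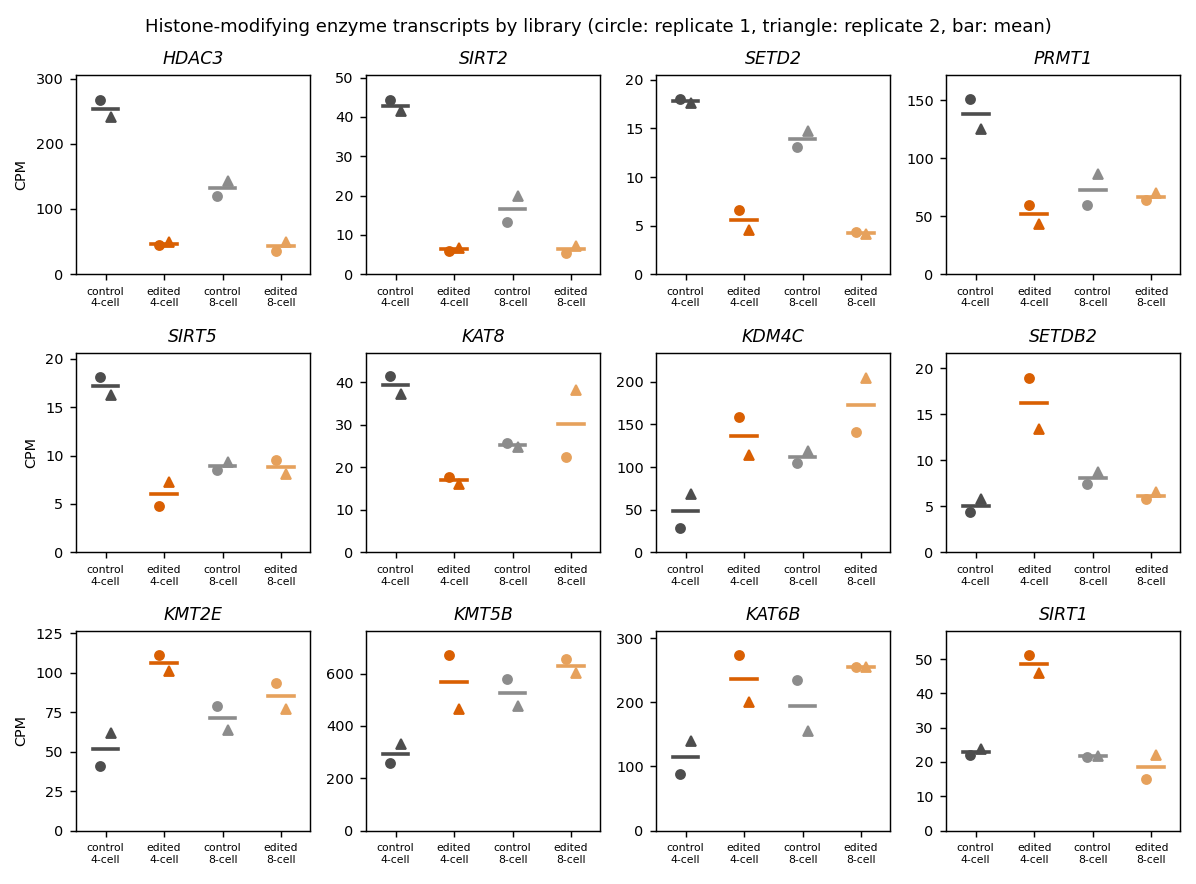
CPM of 12 members with a 4-cell call in each library (y axis from 0 in each panel, groups on the x axis, circle for replicate 1, triangle for replicate 2, bar for the mean). HDAC3, SIRT2 and SETD2 are lower in edited than in control libraries at both stages, PRMT1, SIRT5 and KAT8 at the 4-cell stage, and SIRT1 and SETDB2 are highest in the 4-cell edited libraries.

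Arginine methyltransferases numbered 7, of which PRMT1, PRMT5 and PRMT7 fell at the 4-cell stage (42.9%, beside 25.8% of all genes). PRMT1, the main asymmetric arginine dimethyltransferase, stood at 151 and 125 CPM in the 4-cell control libraries, 59.8 and 43.5 in the 4-cell edited, 59.9 and 86.1 in the 8-cell control and 63.8 and 69.6 in the 8-cell edited libraries (log2 change -1.41, SE 0.258, adjusted p-value 0.000407 by limma). The 4-cell control libraries were the highest, and at the 8-cell stage edited and control libraries overlapped (log2 fold change -0.10). PRMT5, the main symmetric dimethyltransferase, stood at 55.8 and 66.2 CPM in control and 36.6 and 27.2 CPM in edited libraries at the 4-cell stage (log2 change -0.92, SE 0.272, adjusted p-value 0.0116 by limma), a call lost without the second 4-cell control library (adjusted p-value 0.0560) and without the second 4-cell edited library (adjusted p-value 0.0886), within 0.00377 to 0.999 over its alternatives. PRMT7 stood at 21.7 and 31.5 CPM in control and 13.5 and 13.4 CPM in edited libraries (log2 change -0.91, adjusted p-value 0.0418). Its call was lost when any of 5 libraries was left out, with adjusted p-values from 0.0504 to 0.229, and with TMM factors (0.0597) and in edgeR (0.0714), within 0.0310 to 0.999 over its alternatives. PRMT2 was lower in both 4-cell edited libraries, though these differed widely (13.7 and 13.8 CPM in control and 10.9 and 2.49 CPM in edited libraries, adjusted p-value 0.0521). PRMT3, which methylates the ribosomal protein RPS2, had higher values in both edited groups without passing (log2 fold changes 0.49 and 0.57). PRMT6 and PRMT9 were not called.

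The 5 katanin genes were not called at either stage, with 4-cell log2 fold changes from -0.36 (KATNIP) to 0.73 (KATNAL1, adjusted p-value 0.0549). Under the filter lay 5 matching symbols, which were not tested. KDM6B, another H3K27 demethylase, lay between 0.205 and 1.22 CPM over the 8 libraries, HDAC4, a class IIa deacetylase, between 0.0585 and 0.580 CPM, and KATNAL2 between 0 and 1.08 CPM. KDM8 and PRMT8 had at most 0.739 and 0.117 CPM in any library. The members nearest above the filter were SETD4, at a mean of 1.05 CPM, and KMT2D, and the nearest below it was KDM6B, at 0.589 CPM. In RefSeq's annotation of ARS-UCD2.0, which holds all 79 symbols, 9 members overlap another protein-coding gene, among them the called genes KAT8, KDM1B, PRMT7 and SETDB1. No source used here says that reads were counted by strand, so reads of these and their neighbours could have been mixed.

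The 8-cell stage was then set against the 4-cell stage, separately for control and edited embryos. Among controls 3 members rose (KDM4C, KAT6A and KMT5B) and 3 fell (HDAC3, SIRT2 and PRMT1), which is 3.80% each way, beside 2.75% of all genes higher and 6.27% lower (9.02% either way). HDAC3 had a log2 fold change of -0.95 (limma adjusted p-value 0.0284), SIRT2 one of -1.34 (0.0261) and PRMT1 one of -0.93 (0.0387). KDM4C had 1.32 (0.0284), KMT5B 0.85 (0.0360) and KAT6A 0.89 (0.0476), for which the libraries stood at 18.9 and 22.4 CPM at the 4-cell and 39.1 and 38.7 CPM at the 8-cell stage. These comparisons share the 4-cell control libraries with those of editing at that stage, where these 6 genes had log2 fold changes of -2.42, -2.58, -1.41, 1.58, 0.94 and 0.96. Counts under other settings went with those over all genes. edgeR called 0 of the 79 (18 at an unadjusted p-value under 0.05) and DESeq2 9. Limma without the first 4-cell control library or without the first 8-cell control library called 0 (10 and 7 unadjusted), and without the second 4-cell control library 11. Without either 8-cell edited library, which enter only through the shared spread, limma called 3. The share of all genes called was 0.588% in edgeR and 15.1% in DESeq2, 0.107% without the first 4-cell control, 0.206% without the first 8-cell control and 17.4% without the second 4-cell control library.

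In edited embryos KAT2A rose between the stages (log2 change 1.22, SE 0.310, adjusted p-value 0.0348 by limma), whereas SIRT1 (log2 change -1.36, SE 0.286, adjusted p-value 0.0151) and SETD5 (log2 change -1.33, SE 0.364, adjusted p-value 0.0457) fell. That is 1.27% of members higher and 2.53% lower, beside 1.45% and 3.73% of all genes. KAT2A went from 19.7 and 12 CPM to 38.5 and 35.9 CPM, and SIRT1 went from 51.1 and 45.8 CPM to 15 and 22.2 CPM, with no overlap. The call for KAT2A was lost without the second 4-cell edited library (adjusted p-value 0.289) and without the first 8-cell edited library (adjusted p-value 0.206) and without the second 8-cell edited library (adjusted p-value 0.150), and in edgeR (0.0505), within 0.00393 to 0.289 over its alternatives. The call for SIRT1 was lost without the first 4-cell edited library (adjusted p-value 0.0654) and without the second 4-cell edited library (adjusted p-value 0.163) and without the first 8-cell edited library (adjusted p-value 0.174), and that for SETD5 when any of 5 libraries was left out, with adjusted p-values from 0.0502 to 0.306. The adjusted p-values of SIRT1 and SETD5 ran over 0.000348 to 0.174 and 0.00686 to 0.306. Without the second 4-cell edited library, or without the first 8-cell edited library, no member was called (8 and 11 unadjusted). The count was 1 without the first 4-cell edited or the second 8-cell edited library, and 5 without either 4-cell control library. The shares of all genes called were 0.0577% and 0.816% in the fits with no member called, 2.89% and 1.20% in those with 1, and 7.96% and 7.79% in those with 5.

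The effect of editing itself was compared between the stages. It differed for 2 members, PCGF6 and SUZ12, both with a smaller value at the 8-cell stage, which is 2.53% of members beside 3.96% of all genes (1.95% with a larger and 2.00% with a smaller value). For PCGF6 the log2 effect was 1.79 in 4-cell and 0.42 in 8-cell embryos, a difference of -1.36 (SE 0.360, limma adjusted p-value 0.0459). For SUZ12 it was 1.53 and -0.09, a difference of -1.62 (SE 0.408, adjusted p-value 0.0393). Both calls lay just under the threshold and were lost in edgeR (0.0778 for each). PCGF6 was not called when any of 7 libraries was left out, with adjusted p-values from 0.0571 to 0.191, and SUZ12 was not called when any of 6 libraries was left out, with adjusted p-values from 0.0926 to 0.171, with ranges of 0.00999 to 0.930 and 0.00597 to 0.946 over their alternatives. No member was called when any of 6 libraries was left out, among them both of the 4-cell and both of the 8-cell edited libraries and the first of each control group (9 to 19 with an unadjusted p-value under 0.05), and 5 were called without the second 4-cell control library. Those 6 fits called between 0 and 77 of the 12129 genes, and the last called 1396. For the other 31 members called at the 4-cell stage a difference between stages was not shown, HDAC3 (difference 0.81, adjusted p-value 0.161) and SETD2 (0.02, 0.989) included.

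**Figure D4:**
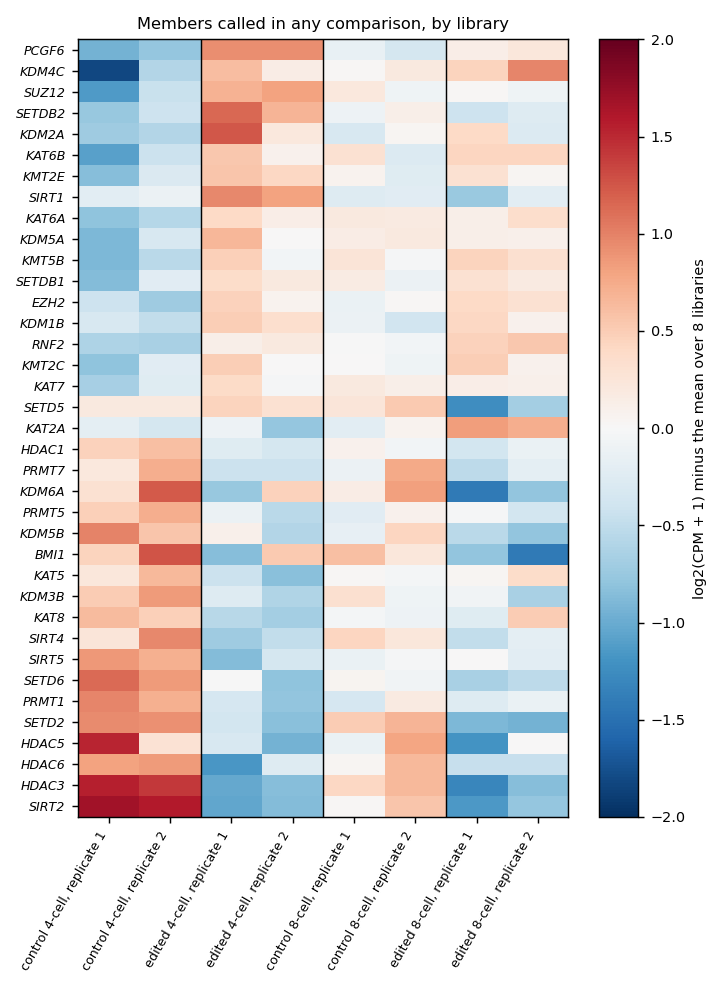
Level of the 37 members called in any comparison, as log2(CPM + 1) minus the mean of the gene over the 8 libraries (red above, blue below, colours capped at 2 either way), with libraries as columns and members in order of their 4-cell change. The 2 control 4-cell libraries stand opposite to the 2 edited 4-cell libraries for most rows, and PCGF6, SUZ12, SETDB2 and SIRT1 are highest in the 4-cell edited libraries. The first contrast follows from the choice of rows, as 33 of the members shown were called between these same libraries.

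Partner genes of the same complexes, from lists written by role, were read beside the members. Of 8 PRC2 partners tested, 4 rose at the 4-cell stage and 1 fell (50.0% and 12.5%, beside 18.9% and 25.8% of all genes). AEBP2, MTF2 and JARID2, accessory subunits that direct PRC2 to its targets, rose (log2 changes 1.35, 1.06 and 1.07, limma adjusted p-values 0.00154, 0.00230 and 0.00806), as SUZ12 and EZH2 did. AEBP2 stood at 13.6 and 22.1 CPM in control and 43.3 and 48.8 CPM in edited libraries and MTF2 at 89.3 and 149.9 CPM in control and 244 and 239.9 CPM in edited libraries. The other gene that rose was EZHIP, an inhibitor of PRC2 (log2 change 1.11, adjusted p-value 0.0412), and the one that fell was the histone chaperone RBBP4 (log2 change -0.70, adjusted p-value 0.0124). Of 13 PRC1 partners 3 rose, PCGF5 (log2 change 1.26, limma adjusted p-value 0.000423), RYBP (log2 change 1.63, adjusted p-value 0.00164) and YAF2 (log2 change 1.18, adjusted p-value 0.00194). PCGF3 fell (log2 change -0.86, adjusted p-value 0.0416). RYBP stood at 3.54 and 5.07 CPM in control and 18.8 and 12.2 CPM in edited libraries, without overlap. EZHIP, RBBP4 and PCGF3 were named after their values were seen, to complete these counts. At the 8-cell stage no PRC1 or PRC2 partner was called by limma (2 and 1 with an unadjusted p-value under 0.05), beside 15.6% of all genes.

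Of 14 partners of the H3K4 methyltransferase complexes 4 rose and 1 fell at the 4-cell stage, with the 3 smallest p-values for PSIP1, a chromatin-tethering protein (log2 fold change 1.18, limma adjusted p-value 0.000231), PAGR1, a subunit of the KMT2C and KMT2D complexes, which fell (log2 change -1.58, adjusted p-value 0.00234), and the coactivator NCOA6 (log2 change 0.98, adjusted p-value 0.00511). At the 8-cell stage 1 rose, WDR5 (log2 change 0.74, adjusted p-value 0.0317), the shared core subunit, and 1 fell, WDR82 (log2 change -0.91, adjusted p-value 0.0364), which recruits SETD1 enzymes. Each is 7.14% of the 14, beside 1.08% of all genes called higher and 14.5% called lower. Of 33 partners of deacetylase complexes 8 rose and 7 fell at the 4-cell stage. Within the complex of HDAC3 the subunits differed: TBL1XR1 rose (log2 change 1.54, adjusted p-value 5.40e-05) from 48.7 and 56.6 to 154 and 156 CPM, and GPS2 fell (log2 change -1.58, adjusted p-value 0.000124) from 118 and 92.9 to 38.7 and 30.2 CPM. ARID4A, of the SIN3 complex, rose (log2 change 1.54, adjusted p-value 5.14e-05). TBL1XR1 and GPS2 kept these directions at the 8-cell stage and were called there too (log2 changes 0.72 and -0.85, adjusted p-values 0.0353 and 0.0291). Of the 33 partners 1 was called higher and 3 lower at that stage (3.03% and 9.09%, beside 1.08% and 14.5% of all genes). Of 43 partners of acetyltransferase complexes 11 rose and 5 fell at the 4-cell stage, led by ENY2 of SAGA (log2 change 1.35, adjusted p-value 7.49e-05), MCRS1, which fell (log2 change -2.21, adjusted p-value 7.68e-05), and BRPF3, a partner of KAT7 (log2 change 1.18, adjusted p-value 0.000697). MCRS1, a subunit of the KAT8 complex NSL, went from 30.4 and 29 to 6.97 and 4.56 CPM. At the 8-cell stage 2 of the 43 were called higher and 2 lower (4.65% each way, beside 1.08% and 14.5% of all genes). Called either way at the 4-cell stage were 62.5% (PRC2), 30.8% (PRC1), 35.7% (H3K4 complexes), 45.5% (deacetylase) and 37.2% (acetyltransferase), beside 44.7% of all genes. In the same order 50.0%, 23.1%, 28.6%, 24.2% and 25.6% were called higher, beside 18.9% of all genes. The medians of these 5 lists at the 4-cell stage were 0.81 (PRC2), 0.08 (PRC1), 0.29 (H3K4 complexes), 0.25 (deacetylase) and -0.001 (acetyltransferase), beside -0.02 over all genes and -1.37 for the 17 cumulus and granulosa markers, 11 of which fell.

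**Figure D5:**
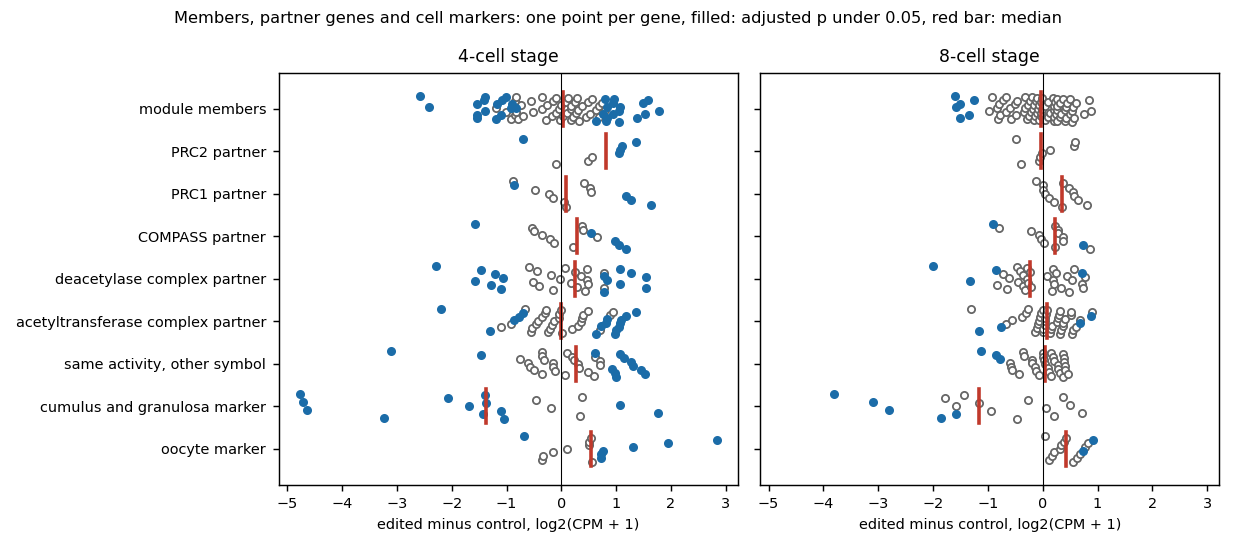
Change between edited and control embryos (x axis, log2(CPM + 1), edited minus control) for the 79 members and for each list of partner genes and cell markers, one point per gene, at the 4-cell stage (left) and the 8-cell stage (right). Filled points have an adjusted p-value under 0.05, red bars are medians, and the members' medians lie at 0.02 and -0.04.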

How the data were processed

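Gene expression was measured by RNA-seq (SMART-Seq v4 and Nextera XT, per the labels' protocols) in 8 libraries. The deposited table holds CPM values made by the authors. Per the submitters' processing notes Trim Galore 0.6.7, HISAT2 2.2.1 and featureCounts 2.0.1 were used. The genome build, annotation and strand setting are not given in the sources used here. The CPM values of each library were whole multiples of what 1 read is worth (100% within 0.05 reads), which gave back the reads behind them. The table has 4 further columns that match no sample label and were not used.

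The members and gene lists were chosen with earlier results of these data known. The filter was a mean of 1 CPM or more, which kept 12129 genes, and log2(CPM + 1) was fitted over the 4 groups of 2 libraries with limma 3.58.1 (R 4.3.3, trend, Benjamini-Hochberg over all genes, called at an adjusted p-value under 0.05). Fold changes are on this scale, which understates the change of low genes. The same model gave both stage comparisons and the difference of the editing effect between stages. With 2 libraries against 2 an exact permutation test cannot go below 0.333, so the tests rest on the spread pooled over genes and groups.

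Alternatives were TMM factors, median centring, edgeR 4.0.16 and DESeq2 1.42.0 on the recovered reads, another pseudocount and filters, only the libraries compared, a replicate block, the summed cumulus and granulosa level as a covariate, and each library left out. edgeR tested 14629 genes, of which it called 5172 between edited and control 4-cell embryos and 1695 between 8-cell embryos. The leave-one-out fits assume that the lone library of a group varies like the others. Libraries of a group differed by more than sampling noise (chi-square per degree of freedom 46.1 to 143.8), so within a group neither is a repeat deposit of the other. Libraries of different groups were not compared in this way. The scripts were tested on simulated data.

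Any member could be named, except for a result that is not reported here. Values in every library are given for the polycomb members, EHMT1 and EHMT2, and for up to 8 called members in each direction with the smallest p-values in each comparison. Of each partner list up to 3 called genes per stage were named, and RPL12 always.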

Additional observations from a re-analysis of the deposited data

Results flagged for a closer look

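The effect of editing differed between the stages for 2 members by a test of the difference itself (limma, adjusted over 12129 genes), which is what singled them out. For PCGF6 the 8-cell effect minus the 4-cell effect was -1.36 on the log2(CPM + 1) scale, and for SUZ12 it was -1.62. Both were highest in the 2 edited 4-cell libraries, and neither difference was called by edgeR. With groups of 2 libraries, single libraries were not tested for standing apart.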

How the results depend on the processing

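Depth does not limit most members, but 18 of 79 lay under 5 CPM on average, and 2 libraries per group leave wide errors. Counts of called members within 1.5 times of those reported were kept at the 4-cell stage in all settings except 2: the marker covariate gave 0 and leaving out libraries 20 to 34. For the 8-cell stage no filter gave 3, the compared libraries alone 10, the covariate 0 and leaving out libraries 2 to 7. For stages in control embryos edgeR, no filter, the compared libraries alone and the covariate each gave 0, and leaving out libraries 0 to 11. For stages in edited embryos median centring gave 5, edgeR 1, DESeq2 7, no filter 0, the compared libraries alone 6 and leaving out libraries 0 to 5. For the difference between stages median centring gave 4, edgeR 0, DESeq2 9, a pseudocount of 5 CPM 4, no filter 0, a filter of 5 CPM 4, the covariate 0 and leaving out libraries 0 to 5. Where these limma and edgeR counts are 0, between 0 and 21 members had an unadjusted p-value under 0.05. Median centring moved the members' median to 0.26 for 4-cell and 0.19 for 8-cell embryos and left 2 higher and 4 lower calls at the latter (33.3% higher). With the covariate 9 genes changed sign at the 4-cell stage, all with a limma adjusted p-value of 0.999: HDAC5 1.19, KAT6B -0.95, KAT7 -0.11, KDM5B 0.40, KMT2C -0.15, KMT2E -0.16, KMT5B -0.18, PRMT7 0.27 and SETDB1 -0.43. The covariate followed the groups at the 4-cell stage, so these values cannot separate it from editing. Causes of these shifts were not tested.

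The labels do not say what replicate numbers mark, and same-numbered libraries deviated together weakly or in opposite directions (r from -0.30 to 0.11). With the replicate number as a block 33 members were called at the 4-cell stage, 6 at the 8-cell stage, 5 and 2 between stages in control and edited embryos, and 1 for the difference. The member calls lost with the block were KAT7 at the 4-cell stage (limma adjusted p-value 0.0699), KAT6A and SETD5 between stages in control and edited embryos (0.0645 and 0.0566), and the difference for PCGF6 (0.0671), while SUZ12 kept its call. When the block swapped the 2 numbers of the 8-cell controls, a setting chosen after seeing the data, the counts were 36, 9, 7, 6 and 4.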

Other observations

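Enzymes of the same kinds that do not carry the symbols of the set were examined as a further list of 34 tested genes. At the 4-cell stage 10 were called higher in edited embryos and 2 lower (29.4% and 5.88%, beside 18.9% and 25.8% of all genes). The median log2 fold change of the list was 0.27, beside -0.02 over all genes. JMJD6, a JmjC-domain lysyl hydroxylase of splicing factors, stood at 64.9 and 58.7 CPM in control and 5.55 and 7.11 CPM in edited libraries (log2 change -3.10, SE 0.342, adjusted p-value 4.80e-06 by limma), a larger fall than that of any member. SMYD2, a lysine methyltransferase of histone and other proteins, also fell (131 and 166 CPM in control and 49.6 and 55.4 CPM in edited libraries, log2 fold change -1.47, limma adjusted p-value 0.000124). The closely related acetyltransferases CREBBP and EP300 rose, at 16.8 and 23.7 CPM in control and 68.1 and 51.4 CPM in edited libraries (log2 change 1.52, adjusted p-value 0.000464) and 8.17 and 16.8 CPM in control and 27.2 and 26.8 CPM in edited libraries (log2 change 1.13, adjusted p-value 0.0109). CLOCK, the third gene by p-value, rose as well (log2 change 1.46, adjusted p-value 0.000298). At the 8-cell stage JMJD6 and SMYD2 were called lower again (log2 fold changes -1.13 and -0.78, adjusted p-values 0.0324 and 0.0314). In all 3 of the 34 genes were called lower at that stage (8.82%, beside 14.5% of all genes). CREBBP and EP300 were named after their values were seen.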
